A study of Mus musculus with 8 samples.

Results

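The nuclear-encoded subunits of oxidative phosphorylation are the proteins of the respiratory chain and ATP synthase whose genes lie in the nucleus. They were taken from the table of gene counts by symbol: names starting Nduf followed by a, b, c, s or v and a number, Sdha to Sdhd, Uqcr, Cox with a subunit number and letter, and Atp5. The rule found 81 of 32499 genes: 36 of complex I, 4 of complex II, 8 of complex III, 16 of complex IV and 17 of complex V. Another 4 rows marked as pseudogenes (-ps) were left out, and subunits under other names, such as Cox4i1 and Ndufab1, fall outside the rule. Complexes I, III and IV pump protons across the inner mitochondrial membrane as electrons pass from NADH and ubiquinol to oxygen, complex II passes electrons from succinate to ubiquinone, and complex V uses the proton gradient to make ATP. The chain also needs subunits from the mitochondrial genome, so that both genomes supply parts of complexes I, III, IV and V. Growing pre-B cells use this machinery for ATP and for the precursors of nucleotides.

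The cells were pre-B cells from the bone marrow of C57BL/6 mice that lack Arf (Arf-/-), a tumour suppressor, and all 4 groups share that deletion. They were transduced with lentivirus and sorted for GFP, and carried the empty vector, HA-tagged wild-type ZNF384, HA-tagged TAF15-ZNF384 or HA-tagged TCF3-ZNF384, with 2 libraries per group. ZNF384 is a zinc finger transcription factor, and its gene is fused to TAF15, TCF3 and others in acute leukaemia. The study asked how the fusion proteins change transcription. The design text calls the replicates biological, and whether each was a separate transduction is not given in the sources used here. The viral promoter and the age of the mice are likewise not given in the sources used here.

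Total counts per library ran from 9381954 to 41483660, and 5 non-coding genes, Rmrp, Rpph1, AY036118, Gm26917 and Gm42418, took 10.9 to 33.2% of them, least in the 2 libraries of wild-type ZNF384. The fusion libraries, at 9381954 to 17876711 counts, were all shallower than the others, at 20298726 to 41483660. Depth and the presence of a fusion are therefore confounded in this design. Of the 13 pre-B and B lineage markers all were tested, and their summed level was 5893 to 6776 CPM (counts scaled to a common library size). The 10 myeloid markers summed to 0.423 to 1.83 CPM, with S100a8 and S100a9 at 0, the 7 T and NK markers to 19.55 to 27.2 CPM with Cd8a at 0, the erythroid and megakaryocyte markers to 3.54 to 6.85 CPM, and the stromal markers to 0.459 to 1.57 CPM with Dcn at 0. The 13 protein genes of the mitochondrial genome had 0 counts in every library, so the mitochondrial side of the chain was not analysed here. In these bulk libraries fewer cells of a type and less RNA per cell cannot be told apart.

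The promoters of 4 members are shown because their genes carried the clearest changes or the motifs of known regulators. Cox7a1 and Uqcrh were the complex IV and III members with the smallest adjusted p when wild-type ZNF384 was compared with the empty vector, Ndufa4 was the member that separated the fusions from each other in complex I, and Atp5k holds a match to the motif of nuclear respiratory factor 1 (NRF1). Each line gives the 250 bases before the annotated start of transcription in RefSeq on build GRCm38.p6, 5′ to 3′ along the gene's strand, in the order chr7:30183921-30184170 (plus strand), chr4:116075071-116075320, chr5:108434400-108434649 and chr6:11907451-11907700 (minus strand). Capitals mark matches to the 4 motifs searched.
Cox7a1: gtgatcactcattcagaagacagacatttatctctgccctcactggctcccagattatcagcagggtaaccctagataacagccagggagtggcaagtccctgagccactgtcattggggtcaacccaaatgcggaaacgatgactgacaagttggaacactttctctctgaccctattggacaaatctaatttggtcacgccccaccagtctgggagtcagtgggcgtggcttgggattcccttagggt
Uqcrh: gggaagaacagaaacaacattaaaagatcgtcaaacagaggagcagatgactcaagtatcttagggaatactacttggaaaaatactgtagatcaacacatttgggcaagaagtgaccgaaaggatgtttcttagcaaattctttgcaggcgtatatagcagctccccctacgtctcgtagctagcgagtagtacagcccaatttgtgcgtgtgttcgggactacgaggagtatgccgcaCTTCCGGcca
Atp5k: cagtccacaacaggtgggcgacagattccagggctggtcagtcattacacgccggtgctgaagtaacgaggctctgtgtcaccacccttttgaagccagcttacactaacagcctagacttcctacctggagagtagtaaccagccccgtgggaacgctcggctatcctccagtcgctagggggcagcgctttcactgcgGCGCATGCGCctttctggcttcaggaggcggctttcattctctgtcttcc
Ndufa4: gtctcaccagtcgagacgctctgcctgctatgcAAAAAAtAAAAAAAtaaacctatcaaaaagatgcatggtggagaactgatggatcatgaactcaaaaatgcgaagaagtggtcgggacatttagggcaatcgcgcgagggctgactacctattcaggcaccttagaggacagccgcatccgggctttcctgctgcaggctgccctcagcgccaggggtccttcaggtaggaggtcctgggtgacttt

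The motifs were NRF1 (the letters in capitals in the Atp5k line), GABP, an ETS-family factor also called NRF2 (CCGGAAG), YY1 (AAGATGGC) and, as a motif of the kind ZNF384 is known to bind, a run of A (AAAAAA). All were searched on both strands in windows from 250 bases before to 50 bases after the start. RefSeq windows were found for 69 of the 81 members, 75 windows in all, and were set beside 32851 windows of all genes. The NRF1 motif was in 5 member windows (6.67%, against 0.971% of all windows), the GABP motif in 16 (21.3%, against 8.86%) and the YY1 motif in 12 (16%, against 2.75%). The A run was in 11 member windows (14.7%), against 19.2% of all windows. The Uqcrh promoter holds a GABP match 10 bases before the start, Atp5k an NRF1 match 50 bases before it, Ndufa4 A runs from 217 bases before it, and the Cox7a1 window holds none of the 4. A match describes the letters only, and the libraries measure no binding.

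Per kilobase of annotated exon, the members covered a wide range of levels. The mean over the 8 libraries was highest for Atp5a1, the catalytic-ring alpha subunit of ATP synthase, at 480.7 CPM per kb, and lowest among the tested members for Cox6a2 at 2.26 CPM per kb. Within complex I the range was from Ndufb2 at 2.91 to Ndufa2 at 399.7 CPM per kb, around a median of 18.6 over the 35 members with a length. Complex II ran from Sdhb, its iron-sulfur subunit, at 13.6 to Sdha, its flavoprotein, at 119.6. Complex III had the highest median, 138 CPM per kb, with Uqcrq at 9.07 and the core protein Uqcrc1 at 262.8. Complex IV ran up to Cox8a at 383.5, with a median of 19.8 over its 12 tested members, and complex V down to Atp5s at 3.82, with a median of 23.1. Members of the same complex therefore differed many-fold in counts per length. A further 4 isoform genes did not reach the filter on low counts: Cox7b2, Cox8b and Cox8c had 0 counts in all libraries and Cox6b2 at most 0.092 CPM.

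**Figure D1:**
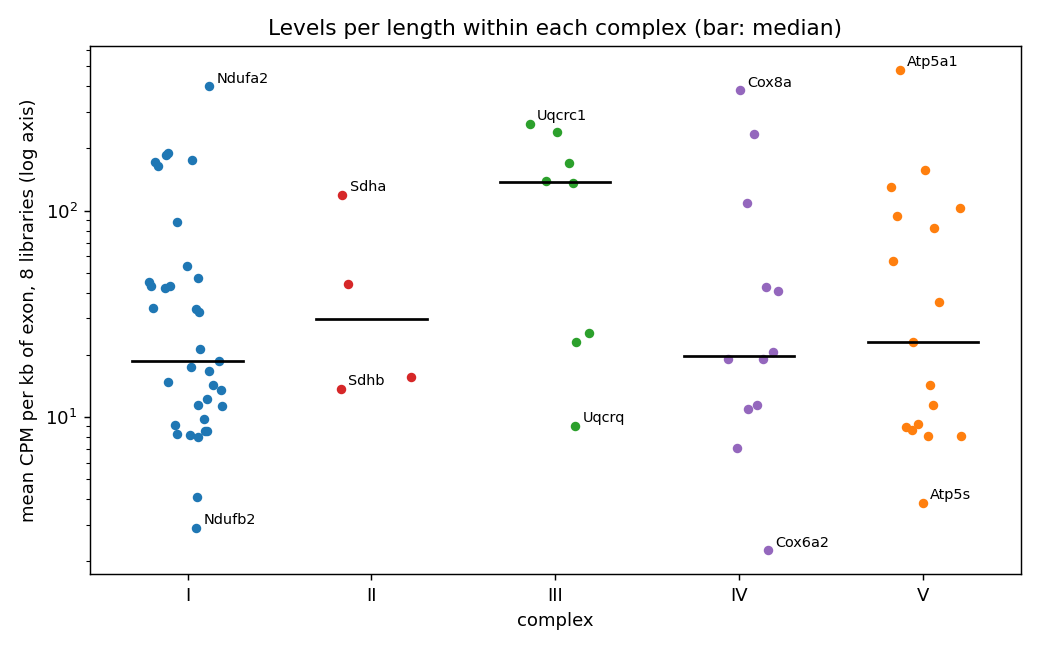
Mean CPM per kb of exon over the 8 libraries (log axis) for the 76 tested members with a length, by complex, with the median of each complex as a bar and the highest and lowest member named. The complex III median of 138 CPM per kb lies above the other medians, 18.6 to 29.9.

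Some members have reads that cannot be placed with certainty. Of the 80 members with a coding transcript in the mm9 annotation, 16 had at least 1 further genomic copy of at least 95% identity over at least 50% of the transcript. Atp5l had 10 such copies, Atp5h had 4, and Uqcrb and Atp5g2 had 3 each, the closest copy of Atp5g2 at 100% identity. The median level was 33.9 CPM per kb over the 16 members with a copy and 22.2 over the 60 tested members without one. Uqcr11 and Cox5b had 2, and Uqcrh (95.3% identity), Atp5k (96.1%) and Cox6c (96.6%) were among those with 1. How reads that fit several places were counted is not given in the sources used here, so the values of these 16 genes are uncertain. In all, 17 members overlap an exon of a gene on the opposite strand, among them Ndufa13 (Tssk6), Cox6a2 (Itgad) and Cox5a (Gm17596). The libraries are stranded, but the strand setting of the count step is not given in the sources used here, so for these genes the reads of the partner cannot be told apart. On the same strand 2 members overlap an exon of another gene, Ndufb2 (Adck2) and Atp5o (Donson), so their levels are uncertain too.

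Between groups the members moved in small steps. Of the 77 members that passed the filter, the highest group mean was a median of 1.35 times the lowest, 56 members stayed under 1.5 times, and 3 reached 2 times: Cox7a1 (6.87), Cox6a2 (5.25) and Atp5g2 (2.61). The wild-type ZNF384 mean was the highest of the 4 for 55 of the 77 (33.0% of the 12970 tested genes), and the TCF3-ZNF384 mean the lowest for 41 (29.4% of tested genes). Both wild-type ZNF384 libraries lay above the 6 others for 36 members, with 16.7% of tested genes doing so, and below them for 2, Ndufs4 and Atp5s, with 14.4% of tested genes doing so. By complex the 36 were 13 of 36 in complex I, 2 of 4 in II, 6 of 8 in III, 7 of 12 in IV and 8 of 17 in V.

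The replicates of each group also differed. The members summed to 7992 and 7444 CPM with the empty vector, 9761 and 8321 with wild-type ZNF384, 6453 and 6854 in TAF15-ZNF384 cells, and 6457 and 6225 in TCF3-ZNF384 cells. The groups did not overlap except that the fusions overlapped each other. Replicate 1 of wild-type ZNF384, the deepest library, stood above the rest: its median member lay 0.28 (log2) above the empty vector mean against 0.14 for replicate 2, and 56 of 77 members were higher in replicate 1 than in replicate 2, where 50.2% of tested genes were. That gap was in 26 of 36 members of complex I, all 4 of complex II, all 8 of complex III and 14 of 17 of complex V, but in only 4 of 12 of complex IV. Replicate 1 was also the higher for 61 of 77 members with the empty vector (53.4% of tested genes) and for 51 in TCF3-ZNF384 cells (49.4%), but for 17 in TAF15-ZNF384 cells (49.8%). The medians of the fusion libraries lay between -0.16 and -0.06.

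The counts by library that rest on wild-type ZNF384 were repeated without its replicate 1, a choice made after the data were seen. Its replicate 2 alone lay above the 6 others for 41 members (22.2% of tested genes) and below them for 5 (19.1%), and it was the highest of the 4 groups for 52 (30.2%). The TCF3-ZNF384 mean was then the lowest for 40 (29.1%). All 4 fusion libraries lay below the wild-type ZNF384 library for 49 members (32.1%), below it and both empty vector libraries for 25 (15.8%), and above these 3 for 1 (13.2%).

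**Figure D2:**
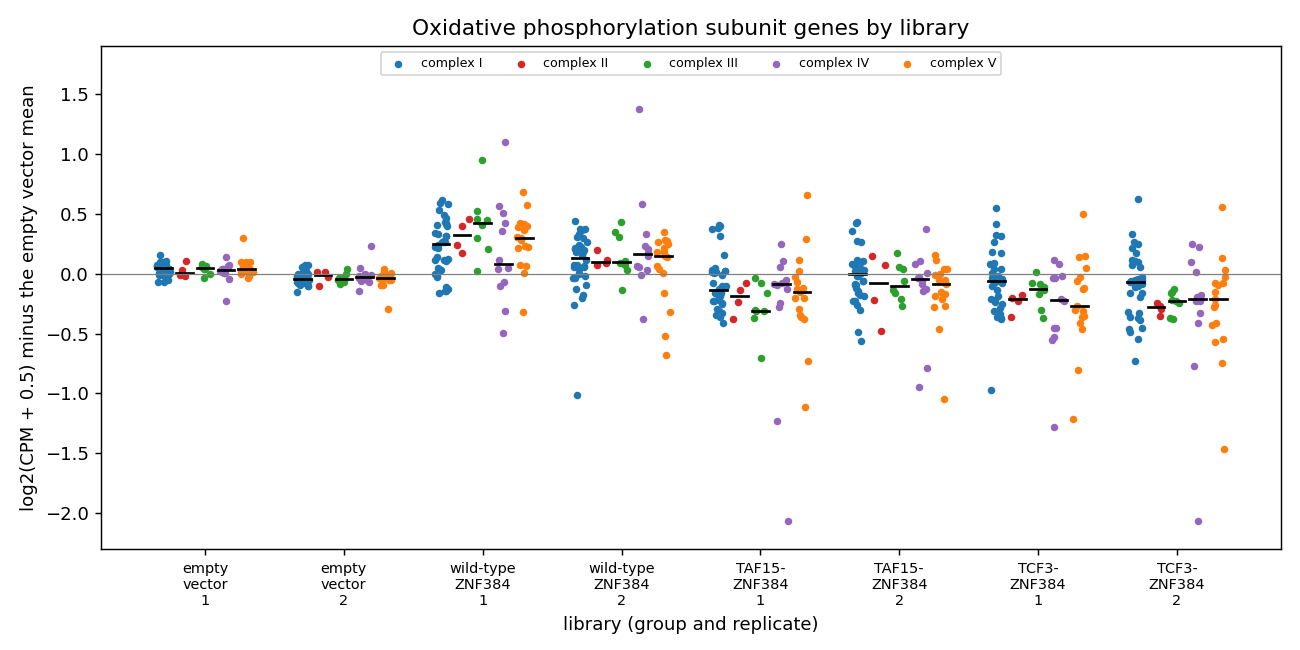
Each point is a tested member in 1 library, as log2(CPM + 0.5) minus the mean of the 2 empty vector libraries, coloured by complex with the median of each complex as a black bar. The complex medians of the wild-type ZNF384 libraries lie above 0, and in replicate 1 that of complex III reaches 0.43.

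With wild-type ZNF384, subunit genes of all 5 complexes rose over the empty vector, led by Cox7a1, Ndufa4, Cox7b and Uqcrh. By edgeR's quasi-likelihood test, with Benjamini-Hochberg adjustment over the 12970 genes and a threshold of 0.05, 15 of the 77 rose and 0 fell, where 10.8% of tested genes rose and 9.87% fell, 20.6% in all. At an unadjusted p under 0.05 the counts were 34 higher and 0 lower, with 4405 of 12970 tested genes past it in either direction. The DESeq2 Wald test gave 14 higher and 0 lower, where 7.89% of tested genes were higher and 8.08% lower. The median log2 fold change of the members was 0.21, beside 0.03 for all tested genes. The 5 abundant non-coding genes named above had their lowest share in the wild-type ZNF384 libraries, and with them left out 13 members rose and the median was 0.19. The risen genes were 5 of complex I, 1 of complex II, and 3 each of complexes III, IV and V. Without wild-type ZNF384 replicate 1 the median was 0.125 beside -0.004 for all tested genes, and without its replicate 2 it was 0.26 beside 0.009. Without empty vector replicate 1 or 2 it was 0.272 beside 0.057 and 0.175 beside 0.026. More members passed without wild-type ZNF384 replicate 2 and fewer without its replicate 1 or either empty vector library, and the same held for all tested genes. Without wild-type ZNF384 replicate 1 some members were called lower, and the share of members called higher lay nearer that of all tested genes. Of the 15 genes, the 6 whose calls were lost without wild-type ZNF384 replicate 1 were Ndufs1 (0.20, adjusted p = 0.227), Sdhc (0.18, 0.128), Uqcrb (0.34, 0.112), Cox6c (0.16, 0.178), Atp5k (0.16, 0.257) and Atp5g3 (0.26, 0.0637), each given as the log2 fold change and adjusted p. Of those kept, Atp5j2 moved from 0.435 to 0.26 and Ndufc1 from 0.49 to 0.32.

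In complex I, Ndufa4, a small protein later assigned to complex IV, stood at 19.4 and 19.7 CPM with the empty vector, 29.5 and 26.65 with wild-type ZNF384, 25.4 and 26.55 in TAF15-ZNF384 cells, and 19.0 and 18.8 in TCF3-ZNF384 cells. Its libraries fell into a high pair of groups, wild-type ZNF384 and TAF15-ZNF384, and a low pair, the empty vector and TCF3-ZNF384, with no overlap between them. It rose by 0.53 ± 0.11 (log2 ± SE, adjusted p = 0.00315) with wild-type ZNF384 over the empty vector. With TAF15-ZNF384 the rise over the empty vector was 0.41 ± 0.11 (adjusted p = 0.033), a call that the DESeq2 Wald test did not make (0.072) and that was lost when either library of the empty vector, TAF15-ZNF384 or TCF3-ZNF384 was left out (0.0541 to 0.195). TCF3-ZNF384 was 0.46 ± 0.12 below TAF15-ZNF384 (adjusted p = 0.023). That last call was lost without either library of the 2 fusion groups (0.0986 to 0.181) and with the trend on transcript length removed (0.0782).

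The other complex I genes that rose with wild-type ZNF384 were Ndufc1, Ndufc2 and Ndufv3, accessory subunits, and Ndufs1, the large iron-sulfur core subunit, which stood at 31.2 ± 0.79 CPM (SD, n = 2) with the empty vector and 38.9 ± 3.7 with wild-type ZNF384. Ndufv3 was the most regular of them. It stood at 93.5 and 84.1 CPM with the empty vector, 111.6 and 114.9 with wild-type ZNF384, 77.6 and 75.6 in TAF15-ZNF384 cells, and 70.8 and 64.3 in TCF3-ZNF384 cells. The 4 groups did not overlap in any library. It rose by 0.35 ± 0.10 over the empty vector with wild-type ZNF384 (adjusted p = 0.0203) and fell by 0.40 ± 0.10 with TCF3-ZNF384 (adjusted p = 0.00728), and the latter call was lost without empty vector replicate 1 (0.0938), without TCF3-ZNF384 replicate 2 (0.11) and with scaling by total count (0.0573). The core subunits Ndufs3 and Ndufv1 passed the test in none of the 6 comparisons.

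In complex III, which oxidises ubiquinol, Uqcrh (the hinge protein) stood at 172.9 and 157.6 CPM with the empty vector, 227.2 and 222.3 with wild-type ZNF384, 156.2 and 142.7 in TAF15-ZNF384 cells, and 156.0 and 148.5 in TCF3-ZNF384 cells. The wild-type ZNF384 libraries were apart from all others and the other groups lay close together. The rise over the empty vector was 0.44 ± 0.10 (adjusted p = 0.00518), and without empty vector replicate 2 it did not pass (0.101). Its value is uncertain, since the gene has a copy. Uqcrb, the ubiquinone-binding protein, stood at 20.65 and 19.1 CPM with the empty vector, 38.9 and 25.4 with wild-type ZNF384, 15.2 and 20.6 in TAF15-ZNF384 cells, and 20.1 and 18.1 in TCF3-ZNF384 cells. Its rise with wild-type ZNF384, 0.70 ± 0.18 (adjusted p = 0.019), came with a wide gap between the replicates, and the gene has 3 copies in the genome. Uqcr11, which has 2 copies, also rose, and Sdhc, a membrane anchor of complex II, rose by 0.33 ± 0.10 (adjusted p = 0.0343).

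In complex V the genes that rose with wild-type ZNF384 were Atp5j2, Atp5k and Atp5g3, all of the membrane sector. Atp5k, subunit e, stood at 82.4 and 72.4 CPM with the empty vector, 124 and 87.6 with wild-type ZNF384, 73.6 and 74.3 in TAF15-ZNF384 cells, and 64.1 and 63.5 in TCF3-ZNF384 cells. The 2 wild-type ZNF384 libraries were highest, and the empty vector and TAF15-ZNF384 overlapped. The gene has a copy in the genome. The subunits of the catalytic head, Atp5a1 (alpha), Atp5b (beta) and Atp5c1 (gamma), did not pass the test in this comparison.

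Complex IV, which reduces oxygen, held the members that moved most. Cox7a1, the isoform of subunit VIIa typical of heart and skeletal muscle (mm9 chromosome 7, 30969190 to 30971047, protein coding), stood at 1.80 and 2.66 CPM with the empty vector, 5.27 and 6.47 with wild-type ZNF384, 0.652 and 1.06 in TAF15-ZNF384 cells, and 1.47 and 1.08 in TCF3-ZNF384 cells. The wild-type ZNF384 libraries were highest and the fusion libraries lowest, and no group overlapped another, although the closest fusion libraries stood at 1.06 and 1.08 CPM. The counts behind these values were 6 to 230 per library. Cox7a1 was 2.62-fold higher with wild-type ZNF384 than with the empty vector (log2 1.39 ± 0.26, adjusted p = 0.00229), 6.77-fold lower with TAF15-ZNF384 than with wild-type ZNF384 (log2 -2.76 ± 0.36, adjusted p = 8.69e-05), and 4.69-fold lower with TCF3-ZNF384 (log2 -2.23 ± 0.31, adjusted p = 6.13e-05). All 3 calls held in each of the 18 alternatives run. Against the empty vector it fell with TAF15-ZNF384 (log2 -1.37 ± 0.40, adjusted p = 0.0402), a call that 9 of 18 alternatives did not make, with adjusted p up to 0.28. With TCF3-ZNF384 the value was -0.84 ± 0.33 (adjusted p = 0.0673).

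Cox7a2 encodes the same subunit in most tissues. Per kb, Cox7a1 made up 19.5 and 26.5% of the sum of both genes with the empty vector, 35.6 and 44% with wild-type ZNF384, 8.79 and 13.2% in TAF15-ZNF384 cells, and 17.0 and 14.2% in TCF3-ZNF384 cells. Cox7a2 itself stood at 15.4 ± 0.074, 18.4 ± 1.8, 14.2 ± 0.28 and 14.2 ± 0.99 CPM in the same order (SD, n = 2). The isoform share was thus highest with wild-type ZNF384 and lowest with TAF15-ZNF384, in every library.

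Cox6a2, the heart and muscle isoform of subunit VIa (mm9 chromosome 7, 135348950 to 135349880, protein coding), showed another order. It stood at 2.58 and 2.42 CPM with the empty vector, 1.63 and 3.02 with wild-type ZNF384, 0.2175 and 1.06 in TAF15-ZNF384 cells, and 0.736 and 0.215 in TCF3-ZNF384 cells. The empty vector and wild-type ZNF384 overlapped, and all 4 fusion libraries lay below all 4 others. The counts were 2 to 10 in the fusion libraries and 60 to 71 in the others. It was 5.86-fold lower with TCF3-ZNF384 than with the empty vector (log2 -2.55 ± 0.59, adjusted p = 0.00453), and the value without TCF3-ZNF384 replicate 2 was -1.76 (adjusted p = 0.0906). With TAF15-ZNF384 the value against the empty vector was -1.95 ± 0.60 (adjusted p = 0.0504). Cox6a1, the common isoform, supplied nearly all of the pair, and Cox6a2 made up at most 1.61% of their level per kb in any library.

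Of the other complex IV genes, Cox7b and Cox6c, which has a copy, rose with wild-type ZNF384. Cox7b stood at 11.5 ± 0.56 CPM with the empty vector, 17.3 ± 0.17 with wild-type ZNF384, 11.4 ± 1.4 in TAF15-ZNF384 cells and 13.0 ± 0.70 in TCF3-ZNF384 cells (SD, n = 2). The wild-type ZNF384 libraries were apart from the 6 others. The rise was 0.59 ± 0.12 (adjusted p = 0.00447) and held in all 18 alternatives.

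**Figure D3:**
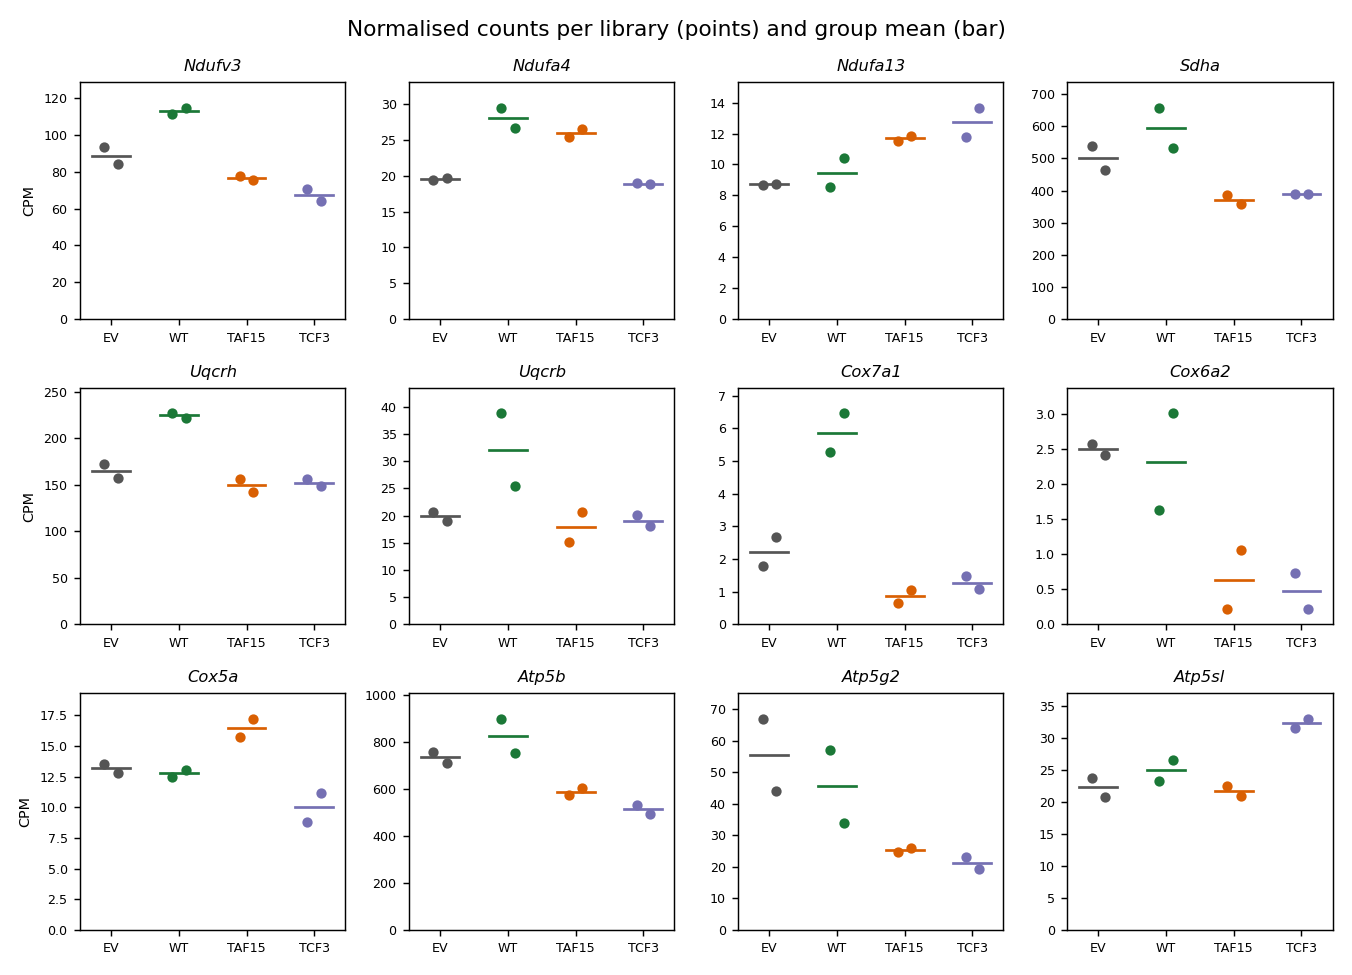
CPM after scaling between libraries for 12 members, with a point for each of the 2 libraries and a bar for the group mean (EV, empty vector; WT, wild-type ZNF384; TAF15, TAF15-ZNF384; TCF3, TCF3-ZNF384). Cox7a1 is highest with wild-type ZNF384 at 5.27 and 6.47, and Cox6a2 is at or below 1.06 in the 4 fusion libraries.

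Against the empty vector, TCF3-ZNF384 came with lower Atp5b, Cox8a, Cox6a2 and Ndufv3 and with higher Atp5sl and Ndufa13. Of the 77 members 2 rose and 15 fell, where 16.2% of tested genes rose and 17.0% fell, 33.3% in all. The median log2 fold change was -0.15, beside 0.01 for all tested genes. The 15 that fell were 5 of complex I, 1 each of complexes II and III, 3 of complex IV and 5 of complex V, and their share, 15 of 77, is near the background, while that of the 2 that rose is under it. With libraries scaled by total count outside the 5 abundant non-coding genes in place of TMM, 5 members rose and 8 fell. The share of tested genes that rose then went to 23.2% and that fell to 11.2%. The members' median went to -0.013 beside 0.15 for all tested genes. With the trend on transcript length removed, 4 members rose and 8 fell, where 15.1% of tested genes rose and 17.1% fell. The members' median was then -0.034 beside 0.002 for all tested genes. Fewer members passed when a library of the empty vector or TCF3-ZNF384 was left out and more when one of wild-type ZNF384 was. The same held for all tested genes. The members' median ran from -0.181, without empty vector replicate 2, to -0.132, without TCF3-ZNF384 replicate 2. Marker lists moved in the same comparison. The 7 T and NK markers summed to 19.55 and 21.4 CPM with the empty vector, 21.8 and 26.2 with wild-type ZNF384, 22.6 and 21.05 in TAF15-ZNF384 cells, and 26.6 and 27.2 in TCF3-ZNF384 cells, and 2 of the 3 tested were higher with TCF3-ZNF384 than with the empty vector. Of the 13 pre-B and B lineage markers, 5 were higher and 4 lower, and they summed to 6669 and 6246 CPM with the empty vector and 5903 and 5893 in TCF3-ZNF384 cells. Their part in the result was not tested.

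Complex V held the clearest of these. Atp5b, the catalytic beta subunit (mm9 chromosome 10, 127520329 to 127527447), stood at 759.6 and 710.9 CPM with the empty vector, 900.6 and 753.5 with wild-type ZNF384, 573 and 606 in TAF15-ZNF384 cells, and 534 and 495.5 in TCF3-ZNF384 cells. The fusion libraries lay below the other 4. The fall with TCF3-ZNF384 was 0.51 ± 0.10 on the log2 scale (adjusted p = 0.00196) and held in all 18 alternatives. Atp5a1 also fell, by 0.37 ± 0.11 (adjusted p = 0.019). Cox8a, the small subunit VIII of complex IV, fell by 0.44 ± 0.10 (adjusted p = 0.00316), from 229 ± 13 to 169 ± 3.6 CPM (SD, n = 2), and with the trend on transcript length removed its call was lost (0.0603).

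The c subunit of the ATP synthase rotor is encoded by Atp5g1, Atp5g2 and Atp5g3, which give the same mature protein. Atp5g2 stood at 66.9 and 44.1 CPM with the empty vector, 57.1 and 33.8 with wild-type ZNF384, 24.8 and 26.0 in TAF15-ZNF384 cells, and 23.2 and 19.4 in TCF3-ZNF384 cells. Its fusion libraries lay below the other 4, whose replicates were far apart. It fell 2.63-fold with TCF3-ZNF384 against the empty vector (log2 -1.39 ± 0.30, adjusted p = 0.0124), a call lost without TCF3-ZNF384 replicate 1 (0.0564) or 2 (0.0979). Atp5g1 fell by 0.49 ± 0.14 (adjusted p = 0.017), while Atp5g3 did not pass this test. The 3 genes together summed to 183 and 158 CPM with the empty vector, 209 and 164 with wild-type ZNF384, 136 and 139 in TAF15-ZNF384 cells, and 126 and 128 in TCF3-ZNF384 cells, so that the sum was lower in every fusion library than in every other library. Atp5g2 has a copy at 100% identity, and Atp5l, which fell by 0.79 ± 0.22 (adjusted p = 0.0227), has 10 copies, so both values are uncertain.

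The 2 members that rose with TCF3-ZNF384 over the empty vector were Atp5sl and Ndufa13. Atp5sl, named Dmac2 in RefSeq, is an assembly factor of the complex I arm and not a subunit of ATP synthase, and Atp5s is its relative Dmac2l. Atp5sl stood at 23.7 and 20.8 CPM with the empty vector, 23.25 and 26.5 with wild-type ZNF384, 22.5 and 20.8 in TAF15-ZNF384 cells, and 31.6 and 32.95 in TCF3-ZNF384 cells. Only the TCF3-ZNF384 libraries stood apart, above the 6 others. The rise was 0.54 ± 0.12 (adjusted p = 0.0029), and it was also past the threshold over wild-type ZNF384 (0.38 ± 0.12, adjusted p = 0.0146) and over TAF15-ZNF384 (0.58 ± 0.12, adjusted p = 0.00889). The first of these held in all 18 alternatives, and the other calls were each lost in 2 (adjusted p up to 0.117).

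Ndufa13, also known as GRIM-19, is a subunit of complex I with a described role in STAT3 signalling. It stood at 8.68 and 8.75 CPM with the empty vector, 8.55 and 10.4 with wild-type ZNF384, 11.5 and 11.85 in TAF15-ZNF384 cells, and 11.8 and 13.7 in TCF3-ZNF384 cells. It was the only member of the 77 with all 4 fusion libraries above the 4 others (11.9% of tested genes), while 25 members had all 4 below them (14.7% of tested genes). The rise with TCF3-ZNF384 over the empty vector was 0.56 ± 0.15 (adjusted p = 0.0116), lost without either empty vector library (0.0578 and 0.0632) and without TCF3-ZNF384 replicate 2 (0.156). With TAF15-ZNF384 the value was 0.42 ± 0.16 (adjusted p = 0.108).

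With TAF15-ZNF384 1 member rose over the empty vector and 3 fell, where 5.01% of tested genes rose and 6.01% fell, 11.0% in all, and the median was -0.07 beside 0.01 for all tested genes. Both counts lie under the background. Beside Ndufa4 and Cox7a1, the called genes were Sdha and Ndufa9. Sdha, the flavoprotein of succinate dehydrogenase (mm9 chromosome 13, 74459702 to 74487728), stood at 538 and 465 CPM with the empty vector, 658 and 532 with wild-type ZNF384, 385 and 359 in TAF15-ZNF384 cells, and 388 and 390.4 in TCF3-ZNF384 cells. Both fusions lay below all 4 other libraries. The fall with TAF15-ZNF384 was 0.43 ± 0.11 (adjusted p = 0.0279), with 5 of 18 alternatives not making the call (0.0545 to 0.252). Ndufa9, an accessory subunit near the quinone site, fell by 0.45 ± 0.12 (adjusted p = 0.0337), with 7 of 18 alternatives not making it (0.0515 to 0.215). More members passed when either wild-type ZNF384 library was left out and fewer when any other was, and the same held for all tested genes. The members' median ran from -0.159, without TAF15-ZNF384 replicate 2, to -0.065, without empty vector replicate 1. At an unadjusted p under 0.05, 4 members were higher and 13 lower, with 3477 of 12970 tested genes past it in either direction. The DESeq2 Wald test called 0 members higher and 6 lower, where 4.51% of tested genes were higher and 5.82% lower.

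Against wild-type ZNF384 a large part of the list was lower with both fusions, among them Cox7a1, Sdha, Uqcrh and Atp5b. With TAF15-ZNF384, 33 of the 77 fell and 1 rose, where 17.9% of tested genes fell and 15.4% rose, 33.3% in all. With TCF3-ZNF384, 49 fell and 2 rose, where 23.4% of tested genes fell and 22.2% rose, 45.6% in all. All 4 fusion libraries lay below both wild-type ZNF384 libraries for 47 of the 77 members, as for 26.3% of tested genes. The median log2 fold changes of the members were -0.31 and -0.39, beside -0.02 and 0.00 for all tested genes. These 2 comparisons share the wild-type ZNF384 libraries with each other and with the comparison of wild-type ZNF384 with the empty vector, so they are not independent of it. Without wild-type ZNF384 replicate 1 the members' medians were -0.21 and -0.26, beside 0.01 and 0.03 for all tested genes. Without TAF15-ZNF384 replicate 1 the former was -0.28, and without TCF3-ZNF384 replicate 1 or 2 the latter was -0.38 and -0.36. Fewer members passed with a library of the fusion compared left out, as did fewer of all tested genes. With scaling by total count 20 members were lower and 3 higher with TAF15-ZNF384, where 11.3% of tested genes were lower and 20.9% higher. With TCF3-ZNF384, 27 were lower and 5 higher, where 15.9% of tested genes were lower and 30.1% higher. The median of all tested genes then moved to 0.12 and 0.17. The members' median stood 0.28 and 0.38 below that of all genes under this scaling, and 0.29 and 0.39 below it under TMM.

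By complex, 10 of 36 members of complex I fell with TAF15-ZNF384, 2 of 4 of complex II, 6 of 8 of complex III, 6 of 12 of complex IV and 9 of 17 of complex V. With TCF3-ZNF384 18, 4, 7, 8 and 12 of them fell in the same order. Of complex II, which is encoded in the nucleus alone, Sdha fell by 0.68 ± 0.11 with TAF15-ZNF384 (adjusted p = 0.00059) and by 0.61 ± 0.11 with TCF3-ZNF384 (adjusted p = 0.000656). Without wild-type ZNF384 replicate 1 these log2 values were -0.50 and -0.43, both still called. Its iron-sulfur partner Sdhb fell with TCF3-ZNF384 by 0.40 ± 0.11 (adjusted p = 0.00853), and the membrane anchors Sdhc and Sdhd fell by 0.58 ± 0.10 and 0.385 ± 0.12, the latter not called without wild-type ZNF384 replicate 1 (adjusted p = 0.0791). In complex III the core proteins Uqcrc1 and Uqcrc2 and the Rieske protein Uqcrfs1 fell with both fusions, and Uqcrq passed in neither comparison. Without wild-type ZNF384 replicate 1 the calls of Uqcrc2 and Uqcrfs1 with TCF3-ZNF384 were lost (adjusted p = 0.0537 and 0.0747).

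The members with the smallest adjusted p against wild-type ZNF384 came from several complexes. For TAF15-ZNF384 they were Cox7a1, Uqcrh (log2 -0.59 ± 0.10, adjusted p = 0.000504), Sdha and Atp5j2, subunit f (log2 -0.61 ± 0.11, adjusted p = 0.000828). For TCF3-ZNF384 they were Ndufv3 (log2 -0.75 ± 0.10, adjusted p = 4.19e-05), Cox7a1, Atp5b (log2 -0.68 ± 0.10, adjusted p = 0.000142) and Atp5a1 (log2 -0.66 ± 0.11, adjusted p = 0.000288). Atp5a1 stood at 1577 ± 82 CPM with the empty vector, 1925 ± 265 with wild-type ZNF384, 1304 ± 86 in TAF15-ZNF384 cells and 1222 ± 68 in TCF3-ZNF384 cells (SD, n = 2). These calls held in all 18 alternatives. Cox6a2 fell with TAF15-ZNF384 (log2 -1.81 ± 0.60, adjusted p = 0.0317) and with TCF3-ZNF384 (log2 -2.41 ± 0.59, adjusted p = 0.00441), and Atp5g2 with TCF3-ZNF384 (log2 -1.12 ± 0.30, adjusted p = 0.0214). The first of the Cox6a2 calls was lost without wild-type ZNF384 replicate 2 (0.103), without TAF15-ZNF384 replicate 1 (log2 -1.10, 0.251) and with scaling by total count (0.0536), and without TAF15-ZNF384 replicate 2 its value was -3.36. The second was lost without TCF3-ZNF384 replicate 2 (log2 -1.61, 0.0949). The Atp5g2 call was lost without wild-type ZNF384 replicate 1 (log2 -0.67, 0.109) or either TCF3-ZNF384 library (0.0712 and 0.142).

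The genes that rose against wild-type ZNF384 were Atp5s with TAF15-ZNF384, and Atp5sl and Ndufa13 with TCF3-ZNF384. Atp5s stood at 5.40 and 5.44 CPM with the empty vector, 4.24 and 4.81 with wild-type ZNF384, 8.81 and 5.92 in TAF15-ZNF384 cells, and 5.62 and 5.12 in TCF3-ZNF384 cells. Its rise, 0.71 ± 0.21 (adjusted p = 0.0202), rested on TAF15-ZNF384 replicate 1, without which it was 0.39 (adjusted p = 0.317). It was also lost without wild-type ZNF384 replicate 1 (0.63, adjusted p = 0.0837). That of Ndufa13, 0.45 ± 0.15 (adjusted p = 0.0242), was not called by the DESeq2 Wald test (0.0847), without wild-type ZNF384 replicate 1 (0.32, adjusted p = 0.159) or without TCF3-ZNF384 replicate 2 (0.335, adjusted p = 0.226). That of Atp5sl was lost without wild-type ZNF384 replicate 1 (0.30, adjusted p = 0.0706).

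**Figure D4:**
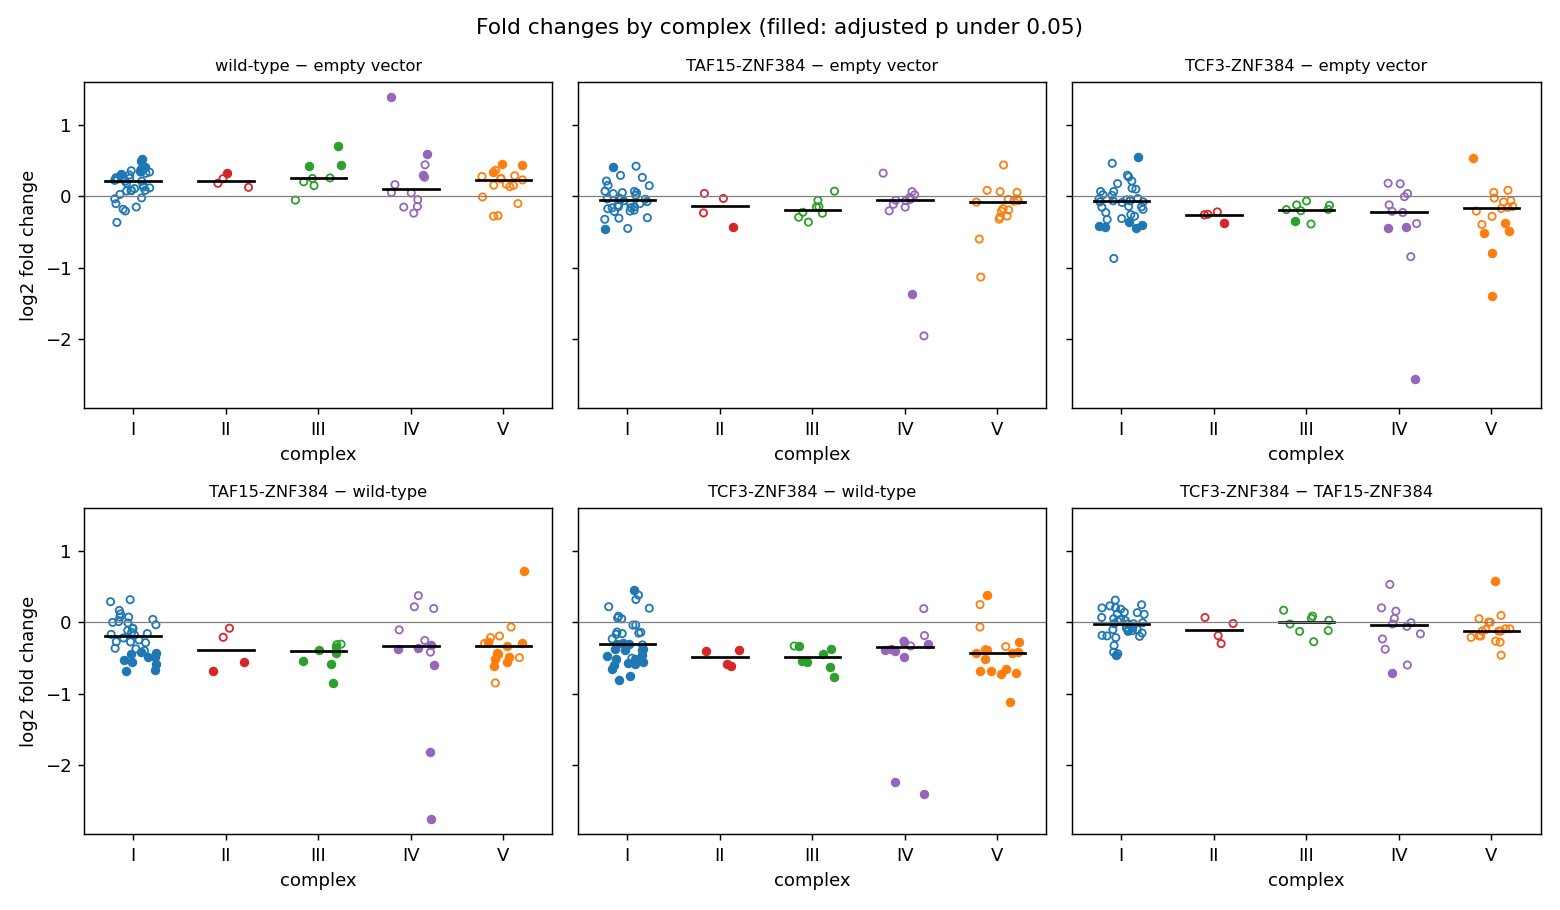
Log2 fold change of each of the 77 tested members in the 6 comparisons, by complex, filled where the adjusted p is under 0.05, with the median of each complex as a bar. In the comparisons of TAF15-ZNF384 and TCF3-ZNF384 with wild-type ZNF384, 33 and 49 members are filled below 0.

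The fusions differed from each other in 3 members. TCF3-ZNF384 was lower than TAF15-ZNF384 in Cox5a and Ndufa4 and higher in Atp5sl, that is 1 higher and 2 lower of 77, where 5.91% of tested genes were higher and 4.17% lower, 10.1% in all. Cox5a, a nuclear subunit on the matrix side of complex IV, stood at 13.5 and 12.8 CPM with the empty vector, 12.5 and 13.1 with wild-type ZNF384, 15.8 and 17.2 in TAF15-ZNF384 cells, and 8.84 and 11.15 in TCF3-ZNF384 cells. The TAF15-ZNF384 libraries were the highest and the TCF3-ZNF384 libraries the lowest. The log2 difference, TCF3-ZNF384 over TAF15-ZNF384, was -0.705 ± 0.15 (adjusted p = 0.00853), lost without TAF15-ZNF384 replicate 2 (0.109) or TCF3-ZNF384 replicate 1 (0.101). Cox5a passed the test against neither the empty vector nor wild-type ZNF384. At an unadjusted p under 0.05, 1 member was higher and 7 lower, with 3104 of 12970 tested genes past it in either direction. Fewer members passed without a library of either fusion and more without a wild-type ZNF384 library, and the same held for all tested genes. The members' median ran from -0.141, without TAF15-ZNF384 replicate 1, to -0.022, without its replicate 2.

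The subunits and carriers outside the naming rule gave 2 calls against wild-type ZNF384 in each fusion among 5 tested genes, all of them lower. Of all tested genes 17.9% fell with TAF15-ZNF384 and 23.4% with TCF3-ZNF384, and 33.3 and 45.6% were called in either direction. A share of 5 genes is coarse. Ndufab1, the mitochondrial acyl carrier protein, stood at 57.4 ± 3.9 CPM with the empty vector, 68.8 ± 10 with wild-type ZNF384, 49.2 ± 2.2 in TAF15-ZNF384 cells and 51.8 ± 3.9 in TCF3-ZNF384 cells (SD, n = 2). It was lower with TAF15-ZNF384 by 0.49 ± 0.12 (adjusted p = 0.00687) and with TCF3-ZNF384 by 0.41 ± 0.12 (adjusted p = 0.0108) than with wild-type ZNF384. Cox4i1, the main isoform of complex IV subunit IV, was lower by 0.38 ± 0.11 (adjusted p = 0.0156) and 0.34 ± 0.11 (adjusted p = 0.018). With scaling by total count both Cox4i1 calls (0.0686 and 0.151) and that of Ndufab1 with TCF3-ZNF384 (0.0739) were lost. The Cox4i1 calls were also lost with only the 2 groups compared (0.0667 and 0.0509) and with the length trend removed (0.0571 and 0.325). In all, 4 of 18 alternatives lost the Cox4i1 call with TAF15-ZNF384 and 5 that with TCF3-ZNF384. Without wild-type ZNF384 replicate 1 the Ndufab1 values were -0.31 (adjusted p = 0.0438) and -0.23 (adjusted p = 0.0964).

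The assembly factors of complex I moved in both directions. Of 13 tested, 4 rose and 4 fell with TAF15-ZNF384 against wild-type ZNF384, and 4 rose and 5 fell with TCF3-ZNF384. Of all tested genes 15.4% rose and 17.9% fell in the first of these comparisons and 22.2% rose and 23.4% fell in the second. Ndufaf4 stood at 26.8 and 27.3 CPM with the empty vector, 31.3 and 23.2 with wild-type ZNF384, 44.0 and 41.4 in TAF15-ZNF384 cells, and 50.1 and 52.1 in TCF3-ZNF384 cells. All fusion libraries were above all others, and it rose over the empty vector by 0.66 ± 0.13 with TAF15-ZNF384 (adjusted p = 0.00569) and by 0.92 ± 0.13 with TCF3-ZNF384 (adjusted p = 9.81e-05). The former call was lost without empty vector replicate 1 (0.0564) or TAF15-ZNF384 replicate 1 (0.0944). Ecsit, which also acts in Toll-like receptor signalling, rose with TCF3-ZNF384 over the empty vector by 0.94 ± 0.15 (adjusted p = 0.000299), from 12.8 ± 0.79 to 24.5 ± 1.9 CPM (SD, n = 2). Timmdc1 and Nubpl, which help to build the membrane arm and to deliver iron-sulfur clusters, fell with both fusions against wild-type ZNF384. With TAF15-ZNF384 the Nubpl call (-0.40, adjusted p = 0.0291) was lost in 5 of 18 alternatives, with adjusted p from 0.0706 to 0.283 and a value of -0.25 without TAF15-ZNF384 replicate 1. The Timmdc1 call with TAF15-ZNF384 was lost without TAF15-ZNF384 replicate 1 (0.0645), and without wild-type ZNF384 replicate 1 the Timmdc1 values went from -0.58 and -0.54 to -0.37 and -0.33.

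Of the assembly factors of complex III, 6 were tested, and 2 fell with TAF15-ZNF384 against wild-type ZNF384 while 4 fell and 1 rose with TCF3-ZNF384. Bcs1l, which inserts the Rieske protein, was lower with TCF3-ZNF384 by 0.94 ± 0.17 (adjusted p = 0.000552). Its call as lower with TAF15-ZNF384 was lost in 13 of 18 alternatives, among them the DESeq2 Wald test (adjusted p = 0.14). For complex IV, 3 of 18 fell with TAF15-ZNF384, and 4 fell and 1 rose with TCF3-ZNF384, which is near or under the background of 17.9%, 23.4% and 22.2% given for the complex I factors. Lrpprc, which stabilises the messenger RNAs of the mitochondrial genome, stood at 203 and 195 CPM with the empty vector, 289 and 206 with wild-type ZNF384, 153 and 153.5 in TAF15-ZNF384 cells, and 129.5 and 131 in TCF3-ZNF384 cells. It fell with TCF3-ZNF384 by 0.93 ± 0.13 against wild-type ZNF384 (adjusted p = 6.71e-05) and by 0.61 ± 0.13 against the empty vector (adjusted p = 0.00261). The former value was -0.645 without wild-type ZNF384 replicate 1 and still called. Of 4 complex II factors 1, Sdhaf2, fell with TCF3-ZNF384 against wild-type ZNF384, a call lost in 2 of 18 alternatives (0.0701 and 0.0706). Of 4 complex V factors 2, Tmem70 and Atpif1, passed the test as lower with TAF15-ZNF384 than with wild-type ZNF384. The call of Atpif1 (-0.495, adjusted p = 0.048) was lost in 17 of 18 alternatives, with adjusted p up to 0.358, and that of Tmem70 in 3 (0.0615 to 0.0682).

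Among 16 tested regulators of mitochondrial biogenesis, 3 rose and 5 fell with TCF3-ZNF384 against the empty vector, 1 rose and 5 fell against wild-type ZNF384, and 2 rose with wild-type ZNF384 against the empty vector. Of all tested genes 16.2% rose and 17.0% fell in the first of these comparisons, 22.2% rose and 23.4% fell in the second, and 10.8% rose in the third. Ppargc1b, a coactivator of the PGC-1 family, stood at 7.66 and 9.88 CPM with the empty vector, 11.35 and 11.3 with wild-type ZNF384, 8.05 and 9.63 in TAF15-ZNF384 cells, and 3.87 and 4.95 in TCF3-ZNF384 cells. The TCF3-ZNF384 libraries were lowest, and the fall was 0.96 ± 0.19 against the empty vector (adjusted p = 0.0017) and 1.33 ± 0.19 against wild-type ZNF384 (adjusted p = 6.71e-05). Esrra, the nuclear receptor that PGC-1 coactivators bind, stood at 59.4 and 57.3 CPM with the empty vector, 68.05 and 77.6 with wild-type ZNF384, 57.4 and 60.5 in TAF15-ZNF384 cells, and 46.5 and 47.4 in TCF3-ZNF384 cells. It rose with wild-type ZNF384 by 0.32 ± 0.10 (adjusted p = 0.0339) and fell with TCF3-ZNF384 by 0.63 ± 0.10 against wild-type ZNF384 (adjusted p = 0.000208). The rise was lost in 11 of 18 alternatives, among them the DESeq2 Wald test (0.0653) and 7 that leave out a library (adjusted p up to 0.213), and without wild-type ZNF384 replicate 2 it was 0.205.

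Nrf1 rose with TCF3-ZNF384 over the empty vector by 0.33 ± 0.11 (adjusted p = 0.0376), Yy1 fell by 0.29 ± 0.10 (adjusted p = 0.038), and Gabpa fell by 0.28 ± 0.10 against wild-type ZNF384 (adjusted p = 0.0412). Of 18 alternatives 10 lost the Nrf1 call (adjusted p up to 0.301), 9 that of Yy1 (up to 0.264) and 13 that of Gabpa (up to 0.442). The DESeq2 Wald test did not call Nrf1 (0.129) or Gabpa (0.134), and leaving out 1 library lost Nrf1 and Yy1 in 6 of 8 cases each and Gabpa in all 8. Tfam, which packages and transcribes mitochondrial DNA, passed in none of the 6 comparisons, with group means from 80.75 to 86.9 CPM. Ppargc1a was at or below 0.323 CPM in every library and was not tested. Peo1, the mitochondrial helicase Twinkle, fell with both fusions against wild-type ZNF384, by 0.56 ± 0.11 (adjusted p = 0.00162) and 0.79 ± 0.11 (adjusted p = 5.55e-05).

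**Figure D5:**
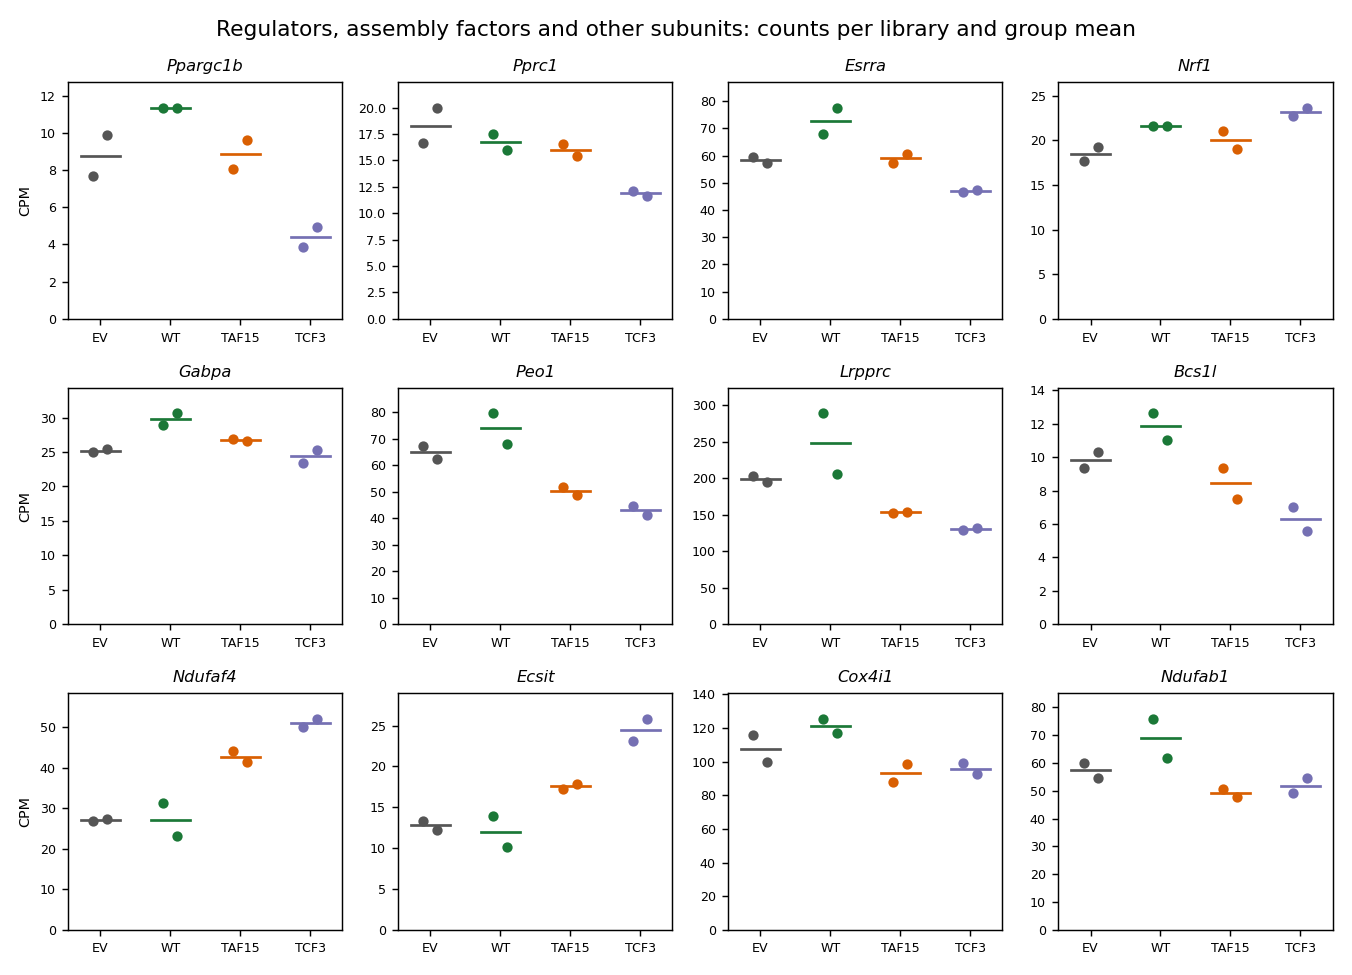
CPM after scaling between libraries for 12 genes outside the subunit list, with a point per library and a bar for the group mean (EV, empty vector; WT, wild-type ZNF384; TAF15, TAF15-ZNF384; TCF3, TCF3-ZNF384). Ppargc1b is lowest with TCF3-ZNF384 at 3.87 and 4.95, and Ndufaf4 is highest in the 4 fusion libraries, from 41.4 to 52.1.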

How the data were processed

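Stranded total RNA was sequenced from 8 libraries of transduced pre-B cells, 4 groups of 2. The deposited values are raw counts of reads per gene, made by the authors with HTSeq 0.6.1p1 on build mm9 per the submitters' processing notes. The aligner, annotation and strand setting are not given in the sources used here. Genes that passed edgeR's filter by group (12970) were scaled by TMM and fitted together in edgeR 4.0.16 under R 4.3.3, which left 4 residual degrees of freedom (biological coefficient of variation 0.0958). All 6 pairs of groups were compared by the 2-sided quasi-likelihood F test. P was adjusted by Benjamini-Hochberg over all tested genes, with a threshold of 0.05, and the SE is the fold change divided by the root of F. The fit was tested on simulated data. Lengths and coordinates are from GENCODE vM1, matched by symbol: 80 of 81 members and 89.07% of tested genes had a length. Members, lists and the rule for named genes (per comparison and direction the 4 members with the smallest adjusted p, every called member past a log2 fold change of 1, the core subunits and the isoform pairs) were chosen with earlier results of these data known. Of the other lists up to 3 genes per direction and the main regulators were named. Genes named beyond the rule, such as Uqcrb and Atp5k, were chosen after their values were seen. The alternatives were DESeq2 1.42.0, other filters and scalings, only the groups compared, a replicate block, length and depth corrections, and leaving out each library.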

Additional observations from a re-analysis of the deposited data

How the results depend on the processing

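No call of a named gene changed direction: of 2160 alternatives of the 120 calls of named genes, 1814 kept the call and 346 lost it. Of the 32 calls of named members, 13 held in every alternative. Replicate numbers were not treated as pairs, and deviations of same-numbered libraries correlated from -0.002 to 0.226. The labels of the counts give replicate 1 of the ZNF384 groups another number than the titles, and the empty vector libraries none. Neither these correlations nor a replicate block can therefore settle whether the libraries were paired. With the replicate block the members changed against the empty vector were 17 (wild-type ZNF384), 7 (TAF15-ZNF384) and 22 (TCF3-ZNF384), in place of 15, 4 and 17. For TAF15-ZNF384 and TCF3-ZNF384 against wild-type ZNF384 they were 39 and 54, and between the fusions 3, in place of 34, 51 and 3. Of all tested genes 12.3, 6.14, 17.5, 16.6, 22.9 and 6.63% then rose in the 6 comparisons in this order. Those that fell were 10.8, 7.93, 18.4, 19.3, 24.2 and 5.11%. With only the 2 groups compared in the fit the first 3 counts were 6, 16 and 31, and that between the fusions 9. Of all tested genes 5.92, 9.28, 20.6 and 11.3% then rose and 8.26, 13.1, 21.6 and 10.7% fell in these 4 comparisons. With no filter on low counts the count for TAF15-ZNF384 against the empty vector was 8, where 3.62% of tested genes rose and 5.53% fell. With the trend on transcript length removed it was 2, where 4.62% rose and 6.16% fell. With scaling by total count the TCF3-ZNF384 count against wild-type ZNF384 was 32, where 30.1% of tested genes rose and 15.9% fell. Leaving out 1 library gave 4 to 35, 0 to 16, 5 to 30, 13 to 50, 21 to 57 and 0 to 8 members in the order above.

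The median log2 fold change of the members moved under total-count scaling to 0.038 and -0.013 for TAF15-ZNF384 and TCF3-ZNF384 against the empty vector and to -0.167 and -0.212 against wild-type ZNF384. The medians of all tested genes were then 0.12, 0.15, 0.117 and 0.169. Members minus all genes was -0.082, -0.163, -0.283 and -0.381, beside -0.082, -0.163, -0.288 and -0.386 under TMM. With the length trend removed the members' median moved to -0.034 and -0.293 for TCF3-ZNF384 against the empty vector and wild-type ZNF384, and members minus all genes was -0.037 and -0.299. Members are short, at a median of 1240 bp of exon against 3483.5 bp over tested genes. Leaving out 1 library gave members' medians of 0.125 to 0.272, -0.159 to -0.065, -0.181 to -0.132, -0.419 to -0.212, -0.447 to -0.262 and -0.141 to -0.022 in the order of the 6 comparisons above. The causes were not tested. With 2 libraries a group, the lone library left in a group is assumed to vary like the others. Depth limits the muscle isoforms: Cox6a2 rests on 2 to 10 counts per fusion library.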

Other observations

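The TCA cycle, which hands NADH and succinate to the chain, was counted over 18 tested genes from a list chosen beside the subunit list. With wild-type ZNF384 3 rose and 1 fell against the empty vector, with TCF3-ZNF384 1 rose and 4 fell against it, and against wild-type ZNF384 1 rose and 8 fell with each fusion. Of all tested genes 10.8% rose and 9.87% fell in the first of these comparisons, 16.2% and 17.0% in the second, 15.4% and 17.9% with TAF15-ZNF384 against wild-type ZNF384, and 22.2% and 23.4% with TCF3-ZNF384 against it, so that the 4 of 18 that fell with TCF3-ZNF384 against the empty vector are near the background. Pdha1, the E1 alpha subunit of pyruvate dehydrogenase, stood at 128.5 and 119.6 CPM with the empty vector, 220.6 and 214.5 with wild-type ZNF384, 99.9 and 104.9 in TAF15-ZNF384 cells, and 130.7 and 123.7 in TCF3-ZNF384 cells. The wild-type ZNF384 libraries stood apart above the rest, and by edgeR the rise over the empty vector was 0.81 ± 0.09 (log2 ± SE, adjusted p = 5.62e-05). Its partner Pdhb, the beta subunit of the same enzyme, moved the other way: it stood at 24.4 and 26.8 CPM with the empty vector, 18.1 and 18.5 with wild-type ZNF384, 25.2 and 26.3 in TAF15-ZNF384 cells, and 23.5 and 26.9 in TCF3-ZNF384 cells. It fell by 0.48 ± 0.11 with wild-type ZNF384 (adjusted p = 0.00697), and this call was lost without empty vector replicate 2 (0.101).

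Fh1, fumarate hydratase, which acts on the product of complex II, stood at 182 ± 5.9 CPM with the empty vector, 327 ± 58 with wild-type ZNF384, 184 ± 16 in TAF15-ZNF384 cells and 153 ± 3.5 in TCF3-ZNF384 cells (SD, n = 2). It rose with wild-type ZNF384 by 0.85 ± 0.12 (adjusted p = 0.000244), and by 0.64 without wild-type ZNF384 replicate 1. Idh3a, a subunit of the NAD-linked isocitrate dehydrogenase, fell with TCF3-ZNF384 by 0.71 ± 0.15 against the empty vector (adjusted p = 0.00258), while Idh2, the NADP-linked mitochondrial enzyme, rose by 0.82 ± 0.18 (adjusted p = 0.00341).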
